A study of Mus musculus with 4 samples.

Results

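The genes described here are 33 markers of astrocytes and radial glia, taken by name from a fixed list. The list was chosen with earlier results of these data known. Its genes were looked up in 2 tables of read counts from mouse brain endothelial cells. Of the 33, 28 had a row in both tables, 2 (Gfap and Slc4a4) had a row in the first table alone, and 3 (S100b, Mlc1 and Gjb6) were listed in neither. The tables held 17905 genes in all and 14100 in both. A gene without a row had at most 4 reads in each library of that table. All 28 members in both tables passed the filter on low counts and were tested for genotype.

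Brain endothelial cells were taken at embryonic day 18 from C57BL/6 mice of 2 genotypes, labelled STING ECKO (libraries 1 and 2) and WT (libraries 3 and 5). STING ECKO is read as an endothelial knockout of STING, an adaptor of cytosolic DNA sensing encoded by Tmem173. Neither the Cre line nor the deleted exons nor the isolation of the cells is described in the labels. The series' design text speaks of triplicates, while 2 libraries of each genotype were analysed here. Whether each library is a separate animal is not in the labels, so every p-value here reflects library-to-library spread that may be technical. Where 4 values follow a gene without further labels, they are in the order of library number, that is 1 and 2 for STING ECKO, then 3 and 5 for WT.

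Radial glia are the neural progenitors of the embryonic brain. They line the ventricles, send a fibre to the brain surface, produce neurons and later turn to making astrocytes, which begin to mature around birth. Notch signalling through Hes5, and the factors Sox2, Sox9 and Pax6, keep radial glia in the progenitor state. Astrocyte endfeet cover the outer wall of brain vessels and are rich in the water channel Aqp4. None of these cells is endothelial, although several genes of the list are also known from other cells of the vessel wall: Vim is a general mesenchymal filament, Nes occurs in young endothelium and pericytes, and Apoe is made by macrophages.

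Total reads in the tables ran from 18610298 to 22169261 per library. The targeted gene, Tmem173, had 67, 182, 97 and 130 reads, which overlapped between genotypes, and genotype here means the label of a library. A whole-gene count includes exons outside a deleted part. STING ECKO 2 stood apart by its zeros, with 13.2% of the 14100 genes at 0 reads against 2.68%, 5.25% and 2.39% in libraries 1, 3 and 5. STING ECKO 1 had 3623 reads of the Y-linked Ddx3y and 0 of Xist, while the other libraries had 876 to 3374 reads of Xist, so sex differs between the STING ECKO libraries. Values below are CPM, read counts scaled to a common library size after TMM (trimmed mean of M values) correction. A count of 0 allows up to 3 reads, which is 0.137 to 0.164 CPM.

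Promoters of 4 members are shown as examples of different patterns in the values below: Hes5 as the Notch target, Acsbg1 as the gene without a STING ECKO read, Slc1a3 as the lower transporter with most reads, and Bcan as a matrix gene with higher STING ECKO values. Each is the 250 bases before the RefSeq start in GRCm38.p6, read 5′ to 3′ on the gene's strand. Capitals mark matches, on either strand, to the core of the binding motif of RBPJ, the DNA-binding partner of Notch (TGGGAA), or to a SOX core (ACAATG).
Hes5, chr4:154960673-154960922, plus strand: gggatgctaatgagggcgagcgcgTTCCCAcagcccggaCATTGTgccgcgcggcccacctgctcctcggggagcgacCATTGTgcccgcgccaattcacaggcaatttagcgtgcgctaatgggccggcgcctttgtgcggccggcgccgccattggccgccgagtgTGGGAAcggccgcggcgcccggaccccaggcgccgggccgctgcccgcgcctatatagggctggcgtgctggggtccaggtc
Acsbg1, chr9:54661886-54662135, minus strand: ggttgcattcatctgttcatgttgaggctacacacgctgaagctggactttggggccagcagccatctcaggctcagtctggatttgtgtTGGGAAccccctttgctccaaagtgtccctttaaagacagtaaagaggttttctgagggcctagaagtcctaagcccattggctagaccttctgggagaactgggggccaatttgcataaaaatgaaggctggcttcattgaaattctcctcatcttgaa
Slc1a3, chr15:8710808-8711057, minus strand: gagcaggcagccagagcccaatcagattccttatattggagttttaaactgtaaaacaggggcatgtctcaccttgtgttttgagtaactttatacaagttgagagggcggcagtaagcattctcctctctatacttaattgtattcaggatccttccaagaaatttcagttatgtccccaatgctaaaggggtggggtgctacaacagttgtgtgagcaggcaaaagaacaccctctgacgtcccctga
Bcan, chr3:88000357-88000606, minus strand: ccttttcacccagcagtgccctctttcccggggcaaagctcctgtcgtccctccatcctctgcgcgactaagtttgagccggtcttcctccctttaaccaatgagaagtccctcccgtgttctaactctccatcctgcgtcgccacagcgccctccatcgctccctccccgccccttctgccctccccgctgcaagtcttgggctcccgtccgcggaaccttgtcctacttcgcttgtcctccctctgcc

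Hes5 held 2 RBPJ matches, which began 226 and 82 bases before the start, and 2 SOX matches, 211 and 172 bases before it. The Hes5 window also overlaps an exon of the non-coding gene Gm20421. Acsbg1 held 1 RBPJ match 160 bases before the start, and the Slc1a3 and Bcan windows held no match. No match overlapped another. RefSeq promoters were found for 30 of the 33 members in 39 windows. The RBPJ core was in 35.9% of these windows, from 12 genes, and in 21.6% of 32851 windows of all genes. The SOX core was in 7.69% of member windows and 10.7% of all windows. The palindrome of nuclear factor I, TGGC and GCCA with 5 bases between, was in 0 member windows and 0.703% of all windows. Matches of this kind describe letters and no binding was measured.

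Per kilobase of exon, the members spanned almost the whole range of the libraries. Mean levels per kilobase were 385 CPM for Apoe (percentile 99.4 of the genes in both tables), 97.8 for Vim, 68.5 for Nes, 67.3 for Dbi, 17.1 for Sox9, 12.5 for Ncan and 12.1 for Fabp7. Over the 4 libraries the range of Apoe lay wholly above that of Vim, and that of Dbi above that of Sox9, while the other neighbours among these 7 overlapped. Another 20 members lay under the 50th percentile, down to 0.0678 CPM per kilobase for the glutamate transporter Slc1a2 (percentile 0.717). For scale, Cldn5, the tight junction protein of brain endothelium, was at 7840 CPM per kilobase. Gfap, the filament that names astrocytes in histology, had 127 reads in library 1, 345 in library 3 and at most 4 in each of libraries 2 and 5.

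**Figure D1:**
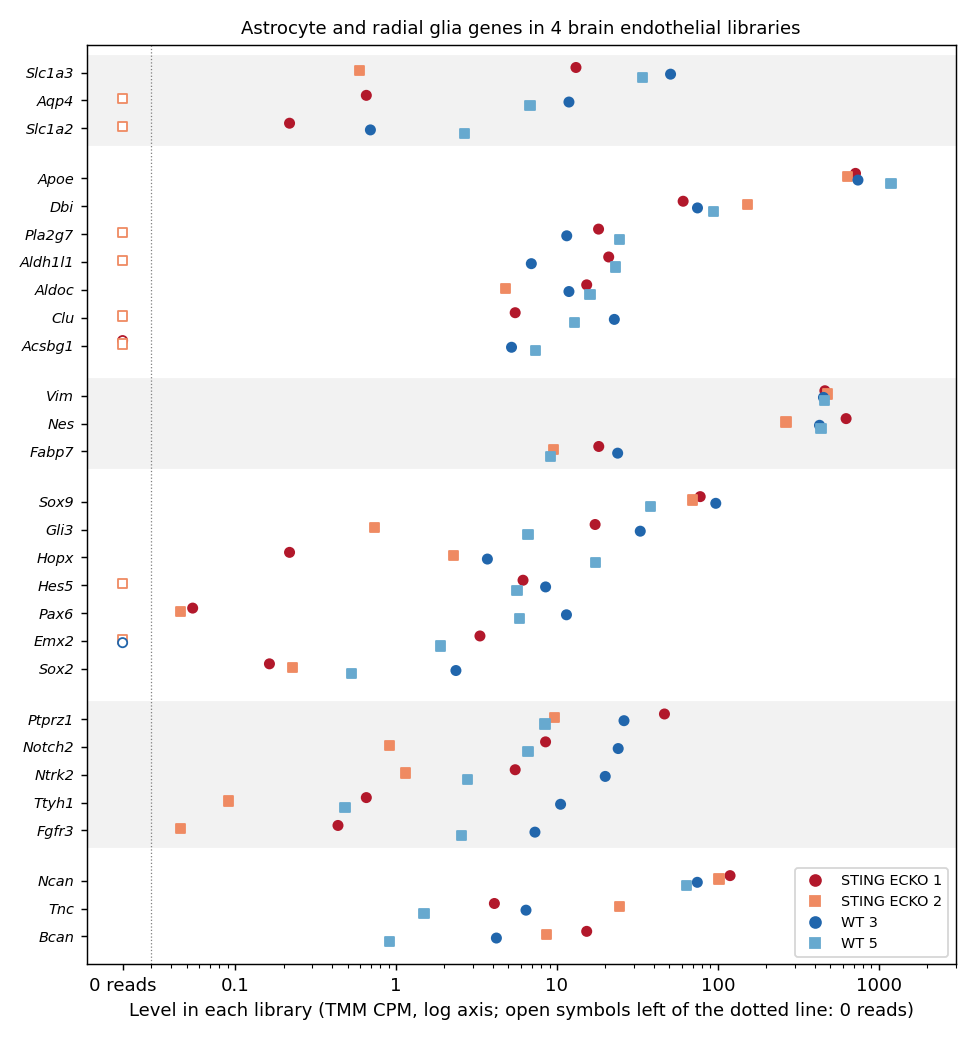
Level of each of the 28 members in both tables (rows, grouped by role) in the 4 libraries, in TMM CPM on a log axis, with open symbols at the left for 0 reads. Apoe, Vim and Nes sit between 265 and 1193 CPM in every library, while 8 members are at 0 reads in STING ECKO 2.

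No member passed the genotype test. After Benjamini-Hochberg adjustment, the quasi-likelihood test of edgeR called 0 of the 28 members and 0 of 13365 genes (0% called), with 2 members at an unadjusted p under 0.05, Acsbg1 and Pax6, both lower in STING ECKO, where 4.80% of all genes were under it, 2.78% as lower and 2.03% as higher. Adjusted p was 0.977 for those 2 members and rounded to 1.00 for the other 26. DESeq2 called 1 member, Pax6, as lower, where it called 0.669% of its genes, 0.327% as lower. The members' fitted log2 fold changes, STING ECKO minus WT, were below 0 in 19 of 28, against 51.8% of all genes. They were -1 or less in 14 (16.1% of all genes) and 1 or more in 2 (10.9%), and their median was -1.06 against -0.03 for all genes tested. That median was -0.31 without STING ECKO 2, -0.58 without WT 3, -1.12 without WT 5 and -3.68 without STING ECKO 1.

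Values of the genotypes did not overlap in 13 of 28 members, where they did not in 34.7% of the genes in both tables. STING ECKO was the lower in 10 (Aqp4, Slc1a2, Slc1a3, Apoe, Fgfr3, Acsbg1, Sox2, Pax6, Hopx and Clu), where 19.3% of the 14100 genes were so, and the higher in 3 (Vim, Bcan and Ncan), where 15.4% were so. Without STING ECKO 2, 11 members lay lower and 6 higher, where 32.4% and 32.6% of all genes did. The direction went with level. Of 20 members under 20 CPM in the mean of all libraries, 17 were below 0, and of 8 at or above 20 CPM, 2 were below 0. Among genes at 0.5 to 5 CPM, 7 of 8 members and 58.1% of all genes were below 0, with medians of -4.11 and -0.30. Among genes at 5 to 20 CPM, 10 of 12 members and 53.8% of all genes were below 0, with medians of -1.06 and -0.11.

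Zeros in STING ECKO 2 fell on the same levels. In that library 8 of 28 members (28.6%) had 0 reads: Aldh1l1, Aqp4, Slc1a2, Acsbg1, Hes5, Pla2g7, Emx2 and Clu. At 0.5 to 5 CPM these were 4 of 8 members, against 37.9% of all genes, and at 5 to 20 CPM 4 of 12, against 12.2%. STING ECKO 1 had 1 member at 0 reads, WT 3 had 1 and WT 5 had 0. The median level of the members was 10.8, 0.823, 11.9 and 7.91 CPM in library order. STING ECKO 2 was the lowest library for 16 members, and WT 3 the highest for 13. In whole-population RNA, fewer glial cells and less RNA per glial cell cannot be told apart.

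Marker lists of other cell types give the setting of these values. Summed levels of 10 endothelial markers were 28383, 27333, 27636 and 27146 CPM in library order. The 7 pericyte markers summed to 9202, 9557, 7481 and 6912 CPM, most of it from Rgs5, and their median levels of 259, 199, 216 and 181 CPM overlapped between genotypes. Without overlap, 3 of the 7 pericyte markers were higher in STING ECKO (15.4% of all genes were) and 1 was lower (19.3%). The lower one was Cspg4, at 83.8, 152, 155 and 181 CPM. Of 10 neuron markers, 9 were in both tables, and their sums were 72.0, 42.2, 158 and 108 CPM in the same order, lower in both STING ECKO libraries, with 5 genes lower without overlap (19.3% of all genes were), with 2 and 3 of the 9 at 0 reads in libraries 1 and 2. Of 6 oligodendrocyte precursor markers, 4 were in both tables, with sums of 94.6, 154, 171 and 188 CPM, most of it from Cspg4, which pericytes share. The 10 microglia and macrophage markers summed to 543, 417, 545 and 1433 CPM, highest in WT 5, which was also the library with most Apoe. STING ECKO 1 and WT 3 were nearly equal in this sum. Without overlap, 4 of these 10 markers were lower in STING ECKO (19.3% of all genes were) and 1 was higher (15.4%). Not every marker was high in WT 5: P2ry12 was lowest there, at 23.5, 47.9, 24.5 and 6.66 CPM. The part of these cells in the members' differences was not tested.

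**Figure D2:**
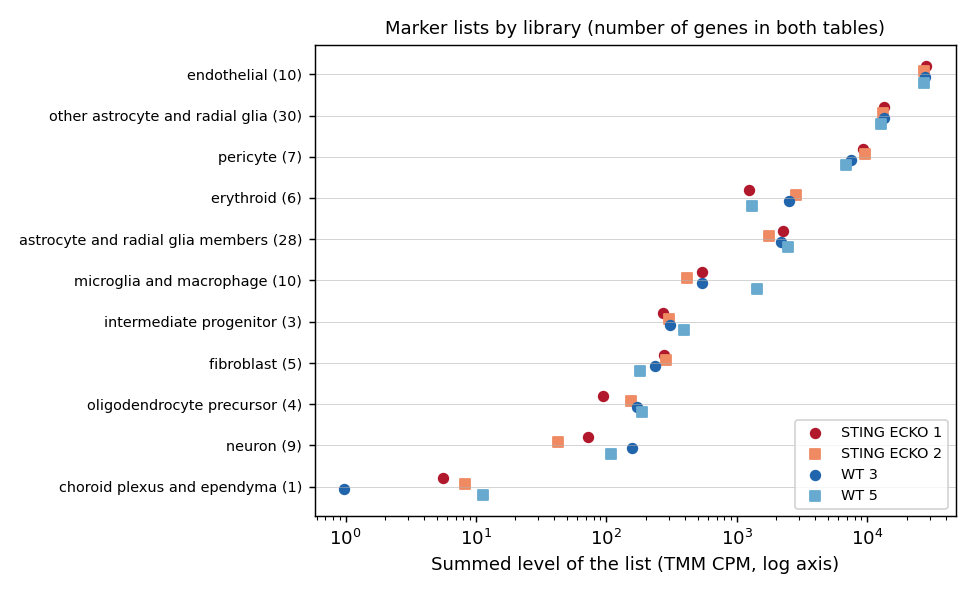
Summed level of each marker list in the 4 libraries, in TMM CPM on a log axis, with the number of genes in both tables in brackets. The 28 members summed to 2265, 1769, 2175 and 2486 CPM. Sums are lower in both STING ECKO libraries for the neuron, intermediate progenitor, oligodendrocyte precursor, and microglia and macrophage lists. Those of the pericyte and fibroblast lists are higher in both. The intermediate progenitor sum is nearly all Btg2 (267, 300, 306 and 393 CPM). In that list 1 gene is lower in STING ECKO without overlap and 1 higher, Eomes (3.16, 3.29, 0.0462 and 0 CPM). The microglia and macrophage sums of STING ECKO 1 and WT 3 are nearly equal (543 and 545 CPM).

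Transporters and channels of astrocytes were lower in both STING ECKO libraries in all 3 members with rows in both tables. Slc1a3 encodes GLAST, the glutamate transporter of radial glia and astrocytes (ENSMUSG00000005360, chromosome 15, 8634124 to 8710764, GRCm38), and its levels were 13.1, 0.594, 50.9 and 34.0 CPM. The WT libraries stood above both STING ECKO libraries, which themselves lay far apart. STING ECKO averaged 6.87 ± 8.87 CPM and WT 42.4 ± 11.95 CPM (SD, n = 2 each), with a log2 fold change of -2.63 (SE 1.43, adjusted p = 1.00 by the edgeR quasi-likelihood test). Leaving out each library in turn left the direction as it was.

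Aqp4, the water channel of endfeet, was at 0.654, 0, 11.9 and 6.80 CPM, from 12, 0, 257 and 141 reads. Over pooled reads scaled to library size, WT was 31.5 times STING ECKO, and the 95% interval from counting was 17.8 to 61.5. Slc1a2, the glutamate transporter GLT-1 that rises after birth, had 4, 0, 15 and 55 reads, few in every library. Slc4a4, a bicarbonate cotransporter, had 1 read in STING ECKO 1 and 9 in WT 3 and no row in the other table. Mlc1, a membrane protein of endfeet, and Gjb6, a gap junction protein of mature astrocytes, had no row.

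Genes of astrocyte metabolism and lipid handling were mixed. Acsbg1, an acyl-CoA synthetase (ENSMUSG00000032281, chromosome 9, 54604877 to 54661870), had 0, 0, 113 and 153 reads. That is at least 42.1-fold lower in STING ECKO over a floor of 3 reads per library, for counting error alone (adjusted p = 0.977 by the edgeR quasi-likelihood test). Of all genes at 0.5 to 5 CPM, 8.63% had no reads in library 1 and 37.9% none in library 2. The share of genes without reads in both libraries was not counted.

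Clu, the secreted chaperone clusterin, was at 5.51, 0, 22.7 and 12.9 CPM, so both WT libraries were higher. Aldh1l1, a folate enzyme used as a pan-astrocyte marker, was at 20.99, 0, 6.93 and 23.2 CPM. Pla2g7, a phospholipase that hydrolyses platelet-activating factor, was at 18.2, 0, 11.5 and 24.4 CPM. In both genes STING ECKO 1 lay within the WT range and only STING ECKO 2 was at 0. Aldoc, a glycolytic aldolase, was at 15.3, 4.80, 11.9 and 16.1 CPM, again with STING ECKO 2 alone below the rest.

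Apoe, the main lipid carrier of the brain (ENSMUSG00000002985, chromosome 7, 19696109 to 19699188), was at 717, 638, 743 and 1193 CPM. Its genotypes did not overlap, but WT 3 and STING ECKO 1 were close and WT 5 alone stood high. The log2 fold change was -0.51 (SE 0.27, adjusted p = 1.00 by the edgeR quasi-likelihood test), and -0.12 without WT 5. Dbi, an acyl-CoA binding protein, was at 60.9, 153, 74.8 and 94.2 CPM. The STING ECKO libraries thus enclosed the WT values.

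Of 3 cytoskeletal and cytosolic members in both tables, Nes and Fabp7 overlapped between genotypes and Vim did not, by a small margin. Vim, the intermediate filament of radial glia and mesenchyme, was at 463, 478, 454 and 462 CPM. Its values spanned so little that the order of the genotypes depended on scaling: they did not overlap under TMM and did under library totals alone. The log2 fold change was 0.04 (SE 0.17). Nes, the filament of neural progenitors, was at 627, 265, 429 and 437 CPM, so the WT libraries lay between the STING ECKO libraries. Fabp7, the fatty acid binding protein of radial glia, was at 18.2, 9.51, 23.9 and 9.12 CPM, with libraries 1 and 3 high and libraries 2 and 5 low.

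Among transcription factors, Pax6 had the most distinct values. Pax6 sets the identity of dorsal cortical radial glia (ENSMUSG00000027168, chromosome 2, 105668900 to 105697364). It had 1 read in each STING ECKO library, 248 reads in WT 3 and 121 in WT 5, which is 0.0545, 0.0457, 11.5 and 5.84 CPM. Scaled WT reads were 175 times those of STING ECKO (95% interval from counting, 48.1 to 1452). The log2 fold change was -7.27 (SE 1.75, adjusted p = 0.977 by the edgeR quasi-likelihood test) and ranged from -7.67 to -6.70 when a library was left out. In DESeq2 its adjusted p was 0.0191, the lowest of 15 alternatives whose adjusted p reached 1.00.

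Other progenitor factors were less even. Hopx, a homeodomain protein of outer radial glia and astrocytes, was at 0.218, 2.29, 3.70 and 17.4 CPM. Sox2, a factor of neural stem cells, had 3, 5, 51 and 11 reads. Both were lower in each STING ECKO library than in each WT library, at levels that also differed several-fold within WT.

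Hes5, the Notch-driven repressor whose promoter is given above, was at 6.16, 0, 8.51 and 5.64 CPM. STING ECKO 1 lay between the WT libraries, so the log2 fold change of -1.20 (SE 2.42) rested on STING ECKO 2 and was -0.19 without it. Gli3, a transcription factor of the Hedgehog pathway, was at 17.3, 0.732, 33.0 and 6.61 CPM and overlapped in the same way. Sox9, needed for gliogenesis, was well covered at 77.7, 69.9, 97.1 and 38.3 CPM, with both STING ECKO libraries between the WT libraries. Emx2, a factor of the cortical primordium, had 61, 0, 0 and 39 reads, present in libraries 1 and 5 alone, and its exons overlap those of Emx2os on the other strand.

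Receptors and membrane proteins were lower in STING ECKO in both tables except Ptprz1. Fgfr3, a fibroblast growth factor receptor of progenitors and astrocytes (ENSMUSG00000054252, chromosome 5, 33721674 to 33737068), was at 0.436, 0.0457, 7.30 and 2.56 CPM, from 8, 1, 158 and 53 reads. Scaled WT reads were 22.3 times those of STING ECKO (95% interval from counting, 11.5 to 49.3). The log2 fold change was -4.33 (SE 1.95, adjusted p = 1.00 by the edgeR quasi-likelihood test). Exons of Fgfr3 overlap those of G630022F23Rik on the other strand. In all, 10 of the 30 listed members overlap a gene of the other strand, and without a stated strand setting their reads cannot be told apart.

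Notch2, a Notch receptor, was at 8.50, 0.914, 24.0 and 6.61 CPM. Ntrk2, the receptor of BDNF, was at 5.51, 1.14, 19.97 and 2.80 CPM. Ttyh1, a membrane protein of neural stem cells, was at 0.654, 0.0914, 10.5 and 0.482 CPM. In all 3 genes WT 3 was the highest library and STING ECKO 1 lay above WT 5, so the genotypes overlapped. The log2 fold change of Ttyh1 went from -3.87 to -0.37 without WT 3, and that of Ntrk2 from -1.78 to 0.25. Ptprz1, a receptor phosphatase of radial glia, was at 46.6, 9.69, 26.1 and 8.44 CPM, with libraries 1 and 3 high, as in Fabp7.

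Extracellular matrix members had the opposite sign. Ncan, the proteoglycan neurocan of developing brain matrix (ENSMUSG00000002341, chromosome 8, 70093085 to 70120873), was at 119, 102, 74.6 and 63.7 CPM. Both STING ECKO libraries were above both WT libraries, and libraries of a genotype were close. STING ECKO averaged 110 ± 12.4 CPM against 69.1 ± 7.71 CPM (SD, n = 2 each), with a log2 fold change of 0.68 (SE 0.31, adjusted p = 1.00 by the edgeR quasi-likelihood test). Leaving out a library gave 0.56 to 0.80.

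Bcan, the related proteoglycan brevican (ENSMUSG00000004892, chromosome 3, 87987531 to 88000230), was at 15.3, 8.60, 4.21 and 0.916 CPM. Again both STING ECKO libraries were higher, and the log2 fold change was 2.22 (SE 1.36, adjusted p = 1.00 by the edgeR quasi-likelihood test), from 1.51 to 3.70 when a library was left out. Tnc, the glycoprotein tenascin C of the progenitor niche, was at 4.09, 24.4, 6.43 and 1.495 CPM. Only STING ECKO 2 stood out, and the log2 fold change of 1.85 was 0.05 without it.

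**Figure D3:**
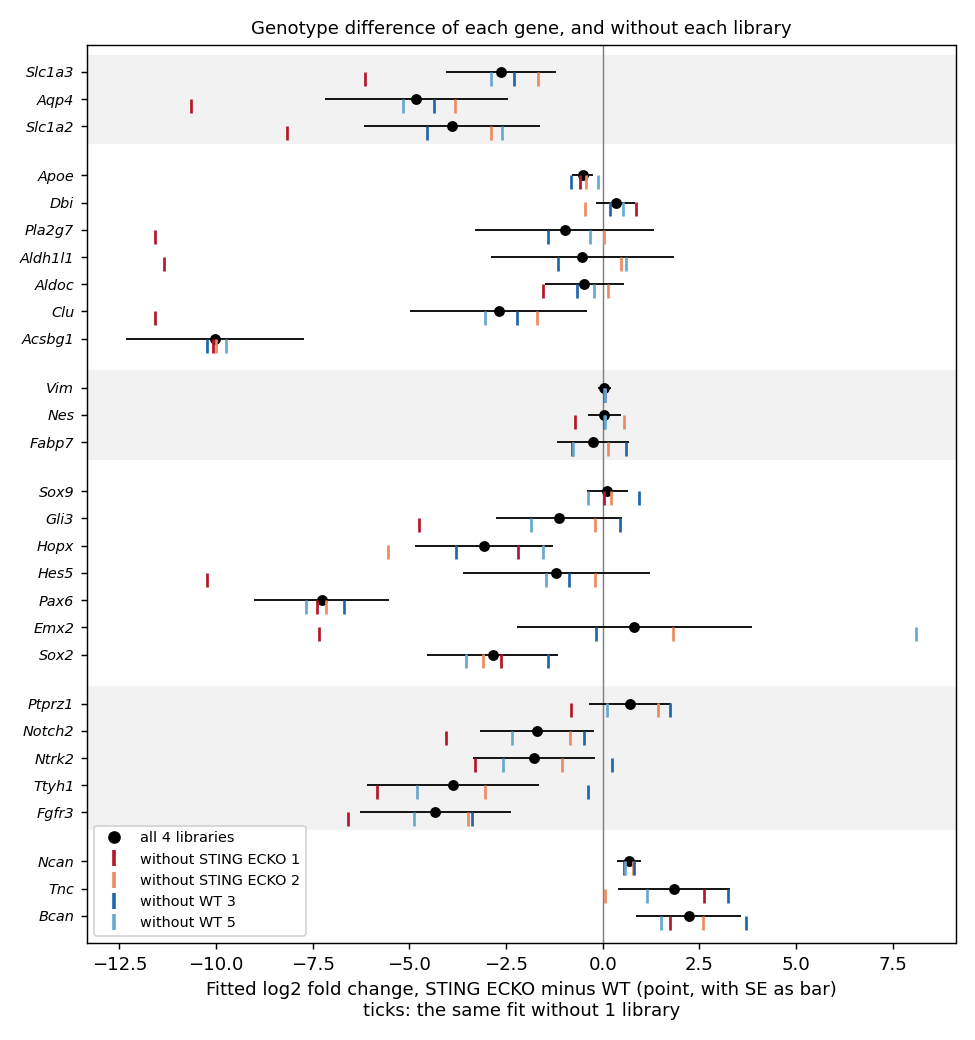
Fitted log2 fold change of each member, STING ECKO minus WT (points, with SE as bars), and the same fit without each library (coloured ticks). Pax6, Acsbg1, Aqp4 and Fgfr3 stay below 0 and Ncan and Bcan above 0 in all 5 fits, none past the adjusted threshold, and fitted values of genes at 0 reads depend on the prior count and are no bounds.

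The values were deposited as 2 pairs of libraries that share no sample, STING ECKO 1 with WT 3 and STING ECKO 2 with WT 5. Members were lower in STING ECKO in both pairs in 15 of 28 cases, where 27.6% of all genes were, higher in both in 4, where 22.5% were, and opposite in 9, where 49.9% were. Past 2-fold, 12 members were lower in both pairs, where 8.11% of the 14100 genes were: Aqp4, Slc1a2, Slc1a3, Fgfr3, Acsbg1, Sox2, Pax6, Hopx, Notch2, Clu, Ttyh1 and Ntrk2. Bcan alone was higher past 2-fold in both, where 4.65% of genes were. Aldh1l1 and Emx2 went past 2-fold in opposite directions, where 12.9% of genes did.

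Within a pair there is 1 library a genotype and no test. For the first pair, 14 of 30 listed members were past 2-fold lower in STING ECKO 1 than in WT 3, where 20.1% of the listed genes were, and 3 were past 2-fold higher, where 22.8% were. For the second pair, 18 of 28 were past 2-fold lower in STING ECKO 2 than in WT 5, where 35.5% were, and 2 were higher, where 17.8% were. The authors' deposited tables marked 14 members lower and 3 higher in the first pair, where they marked 19.4% and 21.5% of the listed genes. In the second pair the authors' deposited table marked 17 lower and 2 higher, where it marked 35.1% and 17% of the listed genes. Libraries of a genotype also differed: 16 members were past 2-fold higher in library 1 than in library 2 (30.7% of all genes) and 3 past 2-fold lower (16.4%). WT 3 against WT 5 gave 11 higher (15.2%) and 5 lower (19.4%). The median absolute log2 difference of the members (CPM + 0.5) was 1.28 between the STING ECKO libraries, 1.34 between the WT libraries, 1.18 in the first pair and 2.41 in the second. Over all genes in both tables it was 0.76, 0.55, 0.56 and 0.83 in the same order.

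**Figure D4:**
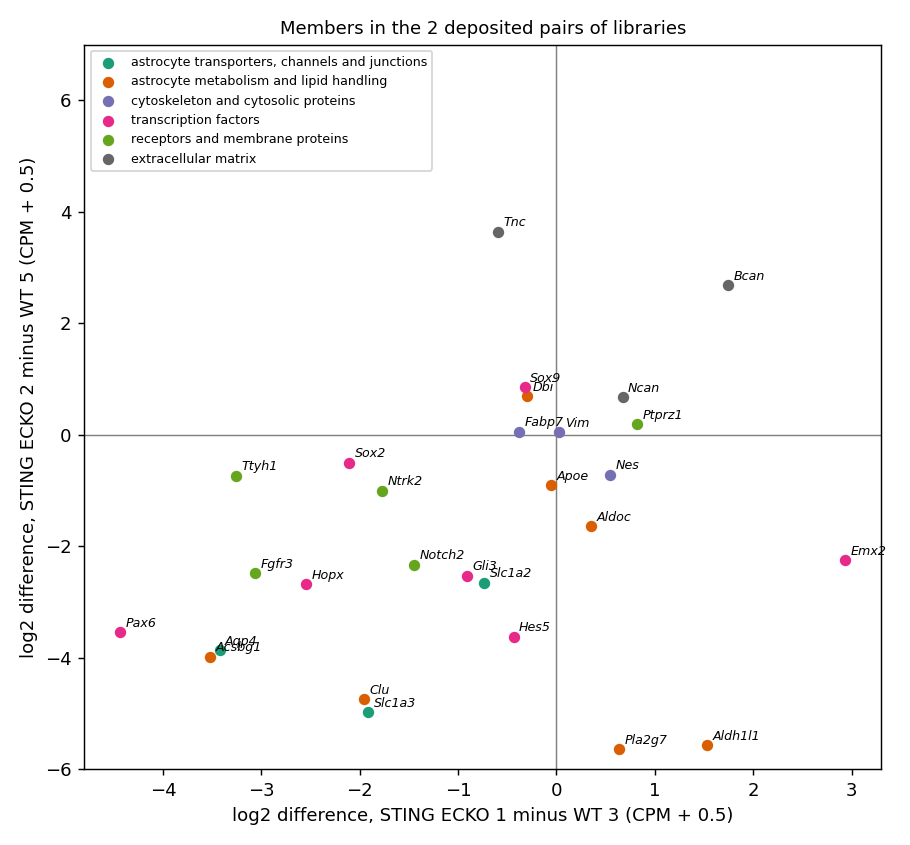
Log2 difference of each member (CPM + 0.5), STING ECKO 1 minus WT 3 across and STING ECKO 2 minus WT 5 upward, coloured by role. Lower left of both zero lines are 15 members, upper right are Vim, Ptprz1, Bcan and Ncan, and 9 differ in sign between the pairs.

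A further list of 42 astrocyte and radial glia genes that are no members did not lean the same way. Of these, 30 were in both tables and 28 were tested, with 0 called by the edgeR quasi-likelihood test, 9 below 0, 19 above 0 and a median log2 fold change of 0.07. The genotypes did not overlap in 7 of the 30 (34.7% of all genes), with STING ECKO lower in 2 (19.3%) and higher in 5 (15.4%). Many of its genes were abundant, led by Sparcl1 and Sparc, secreted matrix proteins that endothelium also makes, at 6047 to 6630 and 2954 to 3346 CPM over the 4 libraries. Tnfrsf19 was at 568 to 830 CPM, Gja1, the gap junction protein connexin 43, at 210 to 277, and Mfge8, an adaptor for phagocytosis, at 216 to 261.

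The 4 genes of that list without overlap and with the smallest unadjusted p were Hes1, Cpe, Gpm6b and Nfib. Hes1, a Notch target and relative of Hes5, was at 263, 337, 96.0 and 81.2 CPM, higher in both STING ECKO libraries. Its log2 fold change was 1.76 (SE 0.26), with an adjusted p of 0.977 by the edgeR quasi-likelihood test and 1.36e-05 by DESeq2, the one gene of that list that DESeq2 called. Whether Hes1 and Hes5 differ in their response was not tested. Cpe, a carboxypeptidase of secretory granules, was at 87.6, 191, 41.8 and 44.8 CPM, and Gpm6b, a membrane proteolipid, at 209, 303, 152 and 186 CPM. Nfib, a gliogenic nuclear factor, was at 189, 130, 223 and 231 CPM, the one gene of the 4 that was lower in STING ECKO.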

How the data were processed

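Total RNA of 4 libraries was sequenced, and HTSeq 0.6.0, TopHat2 2.0.12, Bowtie2 2.2.3 and mm9 are named, per the submitters' processing notes. No source used here gives the strand setting or annotation release. Per the file headers, 1 deposited column per library gives counts. Another gives CPM by the authors, in which a gene without reads still has a small value; the authors' fold change is their ratio, their log2 column its log2, and the authors' p-value columns set single libraries against each other. Counts alone were used for tests. A table lists a gene with reads in both libraries, or with 0 in one and at least 5 in the other. Positions in the tables were identical to GENCODE M21 (GRCm38) for 89.6% of 17872 matched genes and 27 of 30 members, so coordinates are those of GRCm38 and not mm9. Exon lengths came from GENCODE M21, promoters from RefSeq (GRCm38.p6).

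Genes in both tables were merged by identifier, and 20 spreadsheet-altered symbols were restored. Genotypes were compared with edgeR 4.0.16 in R 4.3.3 (minimum count 10 in filterByExpr, TMM, quasi-likelihood test, Benjamini-Hochberg over 13365 genes, threshold 0.05). SE is the log2 fold change divided by the root of F. Counting intervals are 95% exact (scipy 1.17.1) and, like the floor of 3 reads, cover counting error only. DESeq2 1.42.0, limma-voom (limma 3.58.1), the edgeR likelihood ratio test, other scalings and filters, unlisted values set to 0 or 4, a block by table and fits without 1 library served as alternatives; non-overlap without STING ECKO 2 was added after seeing the data. Named genes are every member, the 6 most abundant other glial genes, of which 1 is not reported here, and the 4 without overlap of smallest p. Cldn5, Cspg4, Rgs5, Btg2, Eomes, P2ry12, Ddx3y and Xist were chosen after their values were seen. Members and lists were chosen with earlier results of these data known.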

Additional observations from a re-analysis of the deposited data

How the results depend on the processing

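The count of 0 members called held under 14 of 15 alternatives. DESeq2 called 86 genes, 1 of them a member (Pax6, log2 fold change -7.42) and 1 in the further glial list, and the edgeR likelihood ratio test called 33 genes, 0 members and 1 of the further list. The members' median log2 fold change of -1.06 ranged from -3.68 to -0.31 when a library was left out, was -2.26 in limma-voom and -2.10 with a replicate block by deposited table, and -1.13 with unlisted values set to 0 or 4. The number of members below 0 ranged from 16 to 22 over all settings. The count of members without overlap was 12 to 14 under other scalings and unlisted values, and 17 without STING ECKO 2. No numbers are shared between the genotypes, and the block changed no call.

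Of 416 member values under an alternative, 400 kept their direction, and 17 members had no reversal. Nes turned to -0.12 in limma-voom, to -0.086 with the replicate block and to as low as -0.70 when a library was left out, with a highest of 0.54. Ranges over left-out libraries that crossed 0 were -7.34 to 8.10 for Emx2, -0.83 to 1.74 for Ptprz1, -1.54 to 0.14 for Aldoc, -0.79 to 0.61 for Fabp7, -11.58 to 0.0235 for Pla2g7, -0.47 to 0.86 for Dbi, -11.34 to 0.60 for Aldh1l1, -4.75 to 0.45 for Gli3, -3.31 to 0.25 for Ntrk2 and -0.39 to 0.95 for Sox9. The cause of these changes was not tested. Fits without a library leave 1 sample in a genotype, assumed to vary like the other genotype.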
